A study of Rattus norvegicus with 8 samples.

Results

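Glucose enters a skin cell through facilitative transporters of the Slc2a (GLUT) family and is trapped there by hexokinases, and the genes described here are 3 such transporters (Slc2a1, Slc2a3 and Slc2a4), 3 hexokinases (Hk1, Hk2 and Hk3), the fructose 2,6-bisphosphate enzyme gene Pfkfb3, the lactate dehydrogenase gene Ldha and Txnip. Array probes were assigned to them by RefSeq accession, without its version, and 8 of the 9 genes had a probe, out of 13903 genes that could be given a symbol. They hold 10 of the 24684 probes on the array. Ldha had 3 probes, the other 7 genes had 1 each, and Hk1 was not analysed here. The full-thickness skin came from male Sprague-Dawley rats. The STZ group had been injected intraperitoneally at 4 weeks of age with 60 mg/kg streptozotocin (STZ), a toxin of pancreatic beta cells used to induce diabetes, and the sham group had received sodium citrate solution. Skin was taken 4 weeks later, at 8 weeks of age, and its RNA was hybridised to 1-colour Agilent arrays. The treatment text also speaks of a cutaneous wound, and whether the profiled skin was wounded is not clear from it. No blood glucose value was used here.

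The labels list 4 STZ and 4 sham samples, but these came from only 4 arrays, each read 2 times: within a group, replicates 1 and 3 shared a position on the slide and a spot pattern, as did replicates 2 and 4. Every comparison therefore set 2 STZ arrays against 2 sham arrays. The array of replicates 1 and 3 is called array A and that of replicates 2 and 4 array B. The number of rats behind an array is unknown here, so p-values measure only the spread between these arrays. STZ array B was the dimmest, with a 75th percentile of spot intensity of 606 and 624 in its readings, against 1138 to 1496 in all others. Yet it had the most probes well above background, 22889 and 22759 in its readings, against 20267 to 21430 in all others. Levels are given as log2 intensity over the 75th percentile of the reading. After this scaling the typical (median) difference over the 21529 tested probes, STZ minus sham, was 0.23 in log2 units, so each log2 change below is the difference in group means (STZ minus sham) less that median. The p-values test the group difference before that median is subtracted, while the 95% intervals are centred on the change after it. All 10 probes were well above background in all 8 readings. The tissue label was checked against a list of 8 keratinocyte markers, of which 4 were measured. Krt14 and Krt1, keratins of basal and of suprabasal epidermis, had log2 changes of 0.74 ± 0.66 and 1.33 ± 0.72 (SE), while Krt15 and Tp63, genes of basal cells, had changes of -0.81 ± 0.51 and -1.12 ± 0.61 (SE), none at an unadjusted p under 0.05. Their mean level was 5.85 and 4.99 on STZ arrays A and B, against 5.60 and 4.72 on sham arrays A and B.

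As background, GLUT1 (Slc2a1) carries the basal glucose uptake of keratinocytes, GLUT3 (Slc2a3) is a high-affinity transporter of neurons and leukocytes, and GLUT4 (Slc2a4) is the insulin-responsive transporter of fat and muscle. Hexokinase 2 is the inducible form of muscle, fat and proliferating cells, and hexokinase 3 is found mainly in myeloid cells. PFKFB3 makes the fructose 2,6-bisphosphate that drives phosphofructokinase, and lactate dehydrogenase A turns pyruvate into lactate. Several of these genes are known targets of hypoxia-inducible factor (HIF), many of whose sites hold the letters ACGTG. TXNIP is an arrestin-fold protein that binds thioredoxin and draws GLUT1 and GLUT4 into the cell, and glucose itself switches the gene on through the factors MondoA or ChREBP with their partner Mlx.

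The promoter windows of the genes are shown because HIF sites are the best known element that several of them share. The RefSeq promoter table of build GRCr8 held 5 of the 8 measured genes. In the 250 bases before the listed start, the letters ACGTG, searched on both strands, occurred in 4 of the 5 (Slc2a1, Hk3, Pfkfb3 and Ldha, not Hk2), and in 16.9% of 27457 such windows of all genes. They are in capitals below, where CACGT is the same site on the other strand. Other forms of the HIF site were not searched.
Hk3 (GRCr8, chr17:9604781-9605030, plus strand): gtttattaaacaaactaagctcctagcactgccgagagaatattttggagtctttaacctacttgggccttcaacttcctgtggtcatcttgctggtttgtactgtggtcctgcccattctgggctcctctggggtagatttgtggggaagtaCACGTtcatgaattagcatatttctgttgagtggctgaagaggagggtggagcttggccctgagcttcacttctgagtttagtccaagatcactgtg
Slc2a1 (GRCr8, chr5:138002272-138002521, plus strand): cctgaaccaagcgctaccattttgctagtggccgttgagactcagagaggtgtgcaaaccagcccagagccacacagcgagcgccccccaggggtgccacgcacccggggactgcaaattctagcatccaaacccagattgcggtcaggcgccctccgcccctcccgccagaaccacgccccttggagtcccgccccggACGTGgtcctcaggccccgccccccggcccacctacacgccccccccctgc
Pfkfb3 (GRCr8, chr17:71944683-71944932, plus strand): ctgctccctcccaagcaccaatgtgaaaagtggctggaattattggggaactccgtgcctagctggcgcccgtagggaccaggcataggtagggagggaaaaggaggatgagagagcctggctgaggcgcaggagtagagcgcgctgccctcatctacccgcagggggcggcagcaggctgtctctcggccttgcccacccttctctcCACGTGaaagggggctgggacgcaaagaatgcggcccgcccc
Ldha (GRCr8, chr1:106507842-106508091, plus strand): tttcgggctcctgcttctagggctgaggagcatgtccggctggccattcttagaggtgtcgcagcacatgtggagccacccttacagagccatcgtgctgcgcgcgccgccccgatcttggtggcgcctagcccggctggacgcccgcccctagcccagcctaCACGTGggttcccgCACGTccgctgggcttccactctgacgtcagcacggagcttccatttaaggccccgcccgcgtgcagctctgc
The palindrome CACGTG, which holds ACGTG on both strands, occurred in 2 of the 5 windows, Pfkfb3 and Ldha (5.79% of all windows). The letters GAGGAA, a form of the purine box of myeloid factors, occurred in 1, Hk2 (23.2% of all windows), and not in the window of Hk3. Other forms of this box were not searched. The 4 genes with ACGTG included the largest difference between the groups, that of Hk3, and 2 of the smallest, those of Pfkfb3 and Ldha. A match of letters is no sign that a factor binds there.

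Across the 8 measured genes, Hk3, Slc2a3 and Slc2a1 were higher in STZ skin on average, and Slc2a4 was lower. The 95% intervals of the Slc2a1 and Slc2a4 changes included 0, at -0.22 to 3.18 and -2.09 to 0.32. Hk2, Pfkfb3, Ldha and Txnip had the opposite sign in at least 1 fit with an array left out. Under each of the 5 scalings tried, no scaling included, only Hk3 and Slc2a4 kept the groups apart. Without scaling Slc2a4 did so narrowly, at a log2 intensity of 11.56 on STZ array A against 11.61 on sham array A. No probe of the array passed limma's moderated test after Benjamini-Hochberg adjustment (0% of 21529), so none of the changes below is a call. At an unadjusted p under 0.05, 3 of the 8 were higher and none was lower, where 7.32% of all tested probes were higher and 3.53% lower. The 3 became 2 with median scaling and with quantile normalization, with or without normexp, and without sham array B, and 1 without STZ array A or without sham array A. Both STZ arrays lay above both sham arrays in 4 of the 8 (26.8% of all probes) and below both in 1 (17.8% of all probes), so the groups did not overlap in 5 (44.7% of all probes). The median log2 change of the 8 genes was 0.39, and that of all tested probes is 0 by construction. It was 0.01 without STZ array A, with 4 genes higher and 4 lower, 0.18 without sham array A, 1.32 without STZ array B and 1.27 without sham array B. With 2 arrays against 2, an exact permutation test of a single gene cannot go below a p of 0.333.

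**Figure D1:**
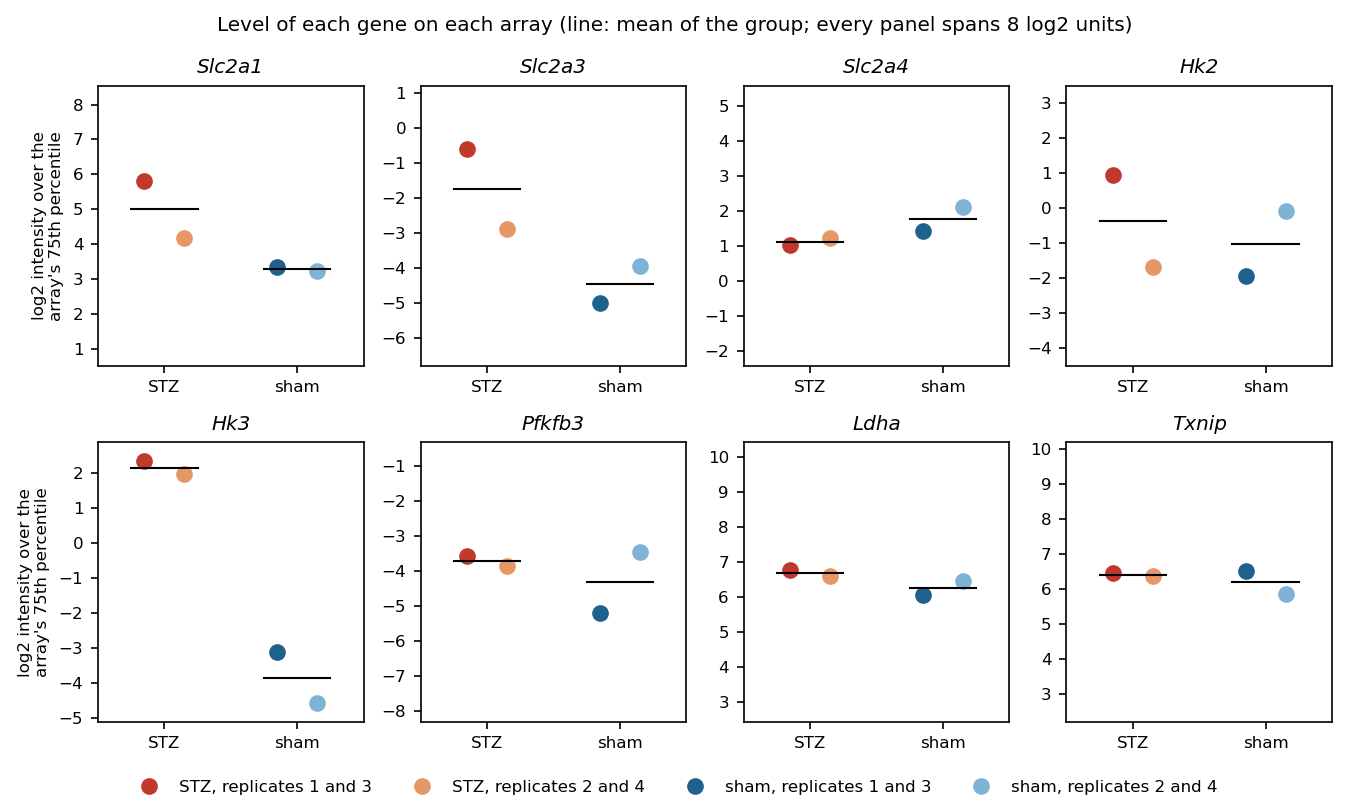
Level of each of the 8 measured genes on each array, as log2 intensity over the 75th percentile of the array (vertical axis), for STZ and sham. Points are single arrays, lines are group means, and every panel spans 8 log2 units. Hk3 lies at 2.34 and 1.97 on the STZ arrays and at -3.13 and -4.58 on the sham arrays, while the 4 points of Txnip lie between 5.87 and 6.53.

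Among the transporters, Slc2a1 stood at 5.82 and 4.19 on STZ arrays A and B, against 3.35 and 3.24 on sham arrays A and B. The sham arrays nearly coincided, and the STZ arrays lay above them but 1.63 apart from each other. Its log2 change was 1.48 ± 0.66 (SE, 2.78-fold; limma, unadjusted p = 0.0496, adjusted p = 0.460). The 95% interval of the change ran from -0.22 to 3.18. The p belongs to the difference of 1.70 before the median was subtracted. The change was 0.50 without STZ array A and 2.49 without STZ array B. Scaled to the median of all probes in place of the 75th percentile, the groups overlapped, because STZ array B then lay at 6.86 between the sham arrays at 6.91 and 6.53. Unscaled, the spot intensity of Slc2a1 was 83893 and 11195 on STZ arrays A and B, against 11818 and 12462 on the sham arrays. The separation of STZ array B from sham thus rested on the scaling of a dim array, while that of STZ array A did not.

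Slc2a3 was dimmer, at -0.58 and -2.89 on STZ arrays A and B, against -5.00 and -3.92 on sham arrays A and B. Both STZ arrays were above both sham arrays, with a gap of 1.03 between the groups and 2.31 between the STZ arrays. Its log2 change was 2.50 ± 0.91 (SE, 5.66-fold; limma, unadjusted p = 0.0297, adjusted p = 0.386), with a 95% interval from 0.17 to 4.83. Without STZ array A it was 1.19, without STZ array B 3.85, and with normexp background correction before quantile normalization 1.63. Without any scaling its groups overlapped, with spot intensities of 999 and 83.2 on STZ arrays A and B, against 36.2 and 87.0 on sham arrays A and B. The separation of STZ array B from sham array B thus rested on the scaling of a dim array. After quantile normalization STZ array B lay at 6.62, against 6.31 on sham array B, and with normexp before it at 7.34, against 7.09. The unadjusted limma p of Slc2a3 was 0.0873 after quantile normalization and 0.121 with normexp before it. Scaled to the median of all probes Slc2a3 passed the test (adjusted p = 0.0295). In that fit limma estimated 226 prior degrees of freedom, against 3.0 on the 75th percentile scale, so nearly the same spread was assumed for every probe.

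Slc2a4 was the only measured gene of the 8 with both STZ arrays below both sham arrays. It stood at 1.02 and 1.22 on STZ arrays A and B, against 1.43 and 2.12 on sham arrays A and B. The gap of 0.22 between the groups was smaller than the 0.69 between the sham arrays. The log2 change was -0.89 ± 0.47 (SE; limma, unadjusted p = 0.220, adjusted p = 0.636), with a 95% interval from -2.09 to 0.32, and it was -0.57 without sham array B. The direction and the lack of overlap also held scaled to the median of all probes, after quantile normalization, after normexp with it and without any scaling. Unscaled, however, STZ array A hardly differed from sham array A. The spot intensity was 3011 and 1429 on STZ arrays A and B, the latter the dim array, against 3117.5 and 5713 on sham arrays A and B.

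Markers of the tissues that carry GLUT4 are given beside this value. All 7 tested adipocyte markers of a list of 8 were lower, 4 of them at an unadjusted p under 0.05, with a median log2 change of -2.21 (6 lower and 1 higher without STZ array A or without sham array B). Their mean level was 0.79 and 1.85 on STZ arrays A and B, against 2.91 and 3.18 on sham arrays A and B. Of 7 tested skeletal muscle markers, 6 were lower and 1 higher, none at an unadjusted p under 0.05, with a median of -0.54 (-0.21 without sham array B and -0.89 without sham array A) and a mean level of 5.57 and 5.54 in STZ, against 5.42 and 6.04 in sham. Whether these markers account for the Slc2a4 value was not tested. In whole skin, fewer cells of a type and less RNA per cell cannot be told apart. Among 152 genes of the pathway and marker lists, the 2 whose centred levels over the 4 arrays lay nearest to those of Slc2a4 were Eno3, the muscle enolase, and Myh2, a myosin of fast muscle fibres, at distances of 0.33 and 0.34 (median distance 1.57).

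The other transporters were higher more often than lower. Of 9 tested members of a list of 10, 7 were higher and 2 lower, with a median log2 change of 0.70 (0.16 with normexp and quantile normalization, and 0.09 without STZ array B), and 2 were higher at an unadjusted p under 0.05 (1 to 4 with an array left out). Slc2a6, the gene of GLUT6, a transporter of leukocytes and other cells, stood at -0.24 and -1.07 on STZ arrays A and B, against -4.25 and -3.68 on sham arrays A and B. Its log2 change was 3.08 ± 0.52 (SE; limma, unadjusted p = 0.00145), larger than that of any of the 3 transporters above. The fructose transporter Slc2a5 stood at -0.27 and -0.10 on the STZ arrays, against -1.78 and -2.14 on the sham arrays, a change of 1.55 ± 0.43 (SE). Slc5a1, a sodium-coupled glucose transporter, had a change of 1.77 ± 0.79 (SE, unadjusted p = 0.0528), with its STZ arrays at -0.25 and -2.38, against sham arrays at -3.35 and -3.28. It was the list gene whose pattern lay nearest to Slc2a1 (distance 0.48, median 2.19), followed by Eno2 (0.54), described below. The median change of 0.70 above is that of Slc2a2, whose probe was dim. Slc2a2 stood at -6.04 and -4.14 on STZ arrays A and B, against -6.23 and -5.80 on sham arrays A and B.

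Of the hexokinases, Hk3 had the largest difference of the 8 genes and ranked 38 of 21529 probes by p. It stood at 2.34 and 1.97 on STZ arrays A and B, against -3.13 and -4.58 on sham arrays A and B. The groups were 5.10 apart at their nearest arrays, and the STZ arrays differed from each other by 0.37 and the sham arrays by 1.45. Its log2 change was 5.79 ± 0.63 (SE, 55.1-fold; limma, unadjusted p = 0.000210, adjusted p = 0.102), with a 95% interval from 4.17 to 7.40. It ran from 5.03 to 6.54 with each array left out in turn and was 4.89 with normexp and quantile normalization. It passed the test scaled to the median of all probes (adjusted p = 3.84e-11, with the 226 prior degrees of freedom given above). Without scaling the intensity was 7552 and 2411 on the STZ arrays, against 132 and 55.0 on the sham arrays, so this separation did not rest on the scaling. The sham spots were dim, though past the background flag in all 4 readings, and the size of the fold depends on their background correction.

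Markers of myeloid cells and of T cells differed in the same direction as Hk3, and those of hair follicle, adipocytes and erythroid cells in the other. All 6 tested neutrophil markers of a list of 8 were higher, 5 at an unadjusted p under 0.05, with a median log2 change of 3.79 (2.68 with normexp and quantile normalization). Their mean level was -0.02 and -0.58 on STZ arrays A and B, against -3.94 and -4.51 on sham arrays A and B. All 8 macrophage markers were higher, 7 at an unadjusted p under 0.05, with a median of 1.83, and their mean level was 3.43 and 3.42 in STZ, against 1.69 and 1.1 in sham (4 at that threshold without either sham array). All 8 T cell markers were higher, 7 at an unadjusted p under 0.05 (3 without sham array B), with a median of 1.96 and a mean level of -0.59 and -0.09 in STZ, against -2.66 and -2.95 in sham. All 7 tested hair follicle markers were lower, with a median of -6.35 (-3.59 without STZ array B) and a mean level of 0.73 and -2.15 in STZ, against 5.09 and 5.08 in sham. All 7 tested erythroid markers were lower as well, with a median of -3.73. The list genes nearest to Hk3 in pattern were S100a8, a subunit of calprotectin (distance 1.11), and Csf3r, the receptor of granulocyte colony-stimulating factor (1.59), where the median distance was 5.94. For Slc2a3 they were Slc16a3 (0.81) and Cxcr2, a chemokine receptor of neutrophils (0.85, median 3.22). The part of any of these cell types in the Hk3 and Slc2a3 values was not tested. The changes of the neutrophil markers ran from 1.57 for Ngp to 5.66 for Mmp8, the neutrophil collagenase. Of the 4 readings of the sham arrays, the Mmp8 probe cleared the background in only 2 and the Ngp probe in 3. Ngp stood at -6.20 and -3.76 on STZ arrays A and B, against -6.77 and -6.79 on sham arrays A and B. The changes of the macrophage markers ran from 1.03 for Mrc1 to 2.84 for Lyz2, a lysozyme.

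**Figure D2:**
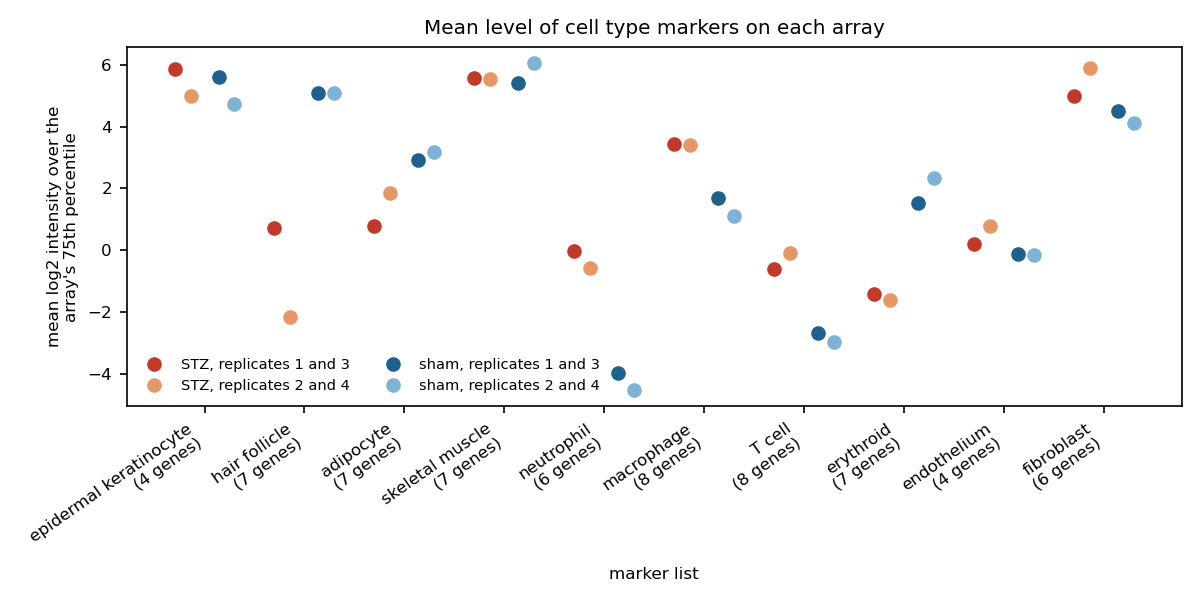
Mean level of 10 lists of cell type markers on each array (vertical axis, log2 intensity over the 75th percentile of the array), with the number of tested genes under each list. Points are single arrays. The neutrophil, macrophage and T cell lists lie higher on both STZ arrays, and the hair follicle, adipocyte and erythroid lists lie lower on both. The fibroblast and endothelium lists are higher on both STZ arrays by less.

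Hk2, the inducible hexokinase, split the arrays of both groups. It stood at 0.94 and -1.70 on STZ arrays A and B, against -1.96 and -0.08 on sham arrays A and B. STZ array A was the highest of the 4 and sham array A the lowest, with STZ array B beside it. The difference of 2.63 between the STZ arrays exceeded that of 95.9% of tested probes, and the difference of 1.88 between the sham arrays that of 95.5%. The log2 change was 0.41 ± 1.1 (SE; limma, unadjusted p = 0.586), with a 95% interval from -2.42 to 3.25. Changes in either direction up to those bounds are within what these arrays allow. The change turned to -1.06 without STZ array A and to -0.50 without sham array A, and was 1.93 without STZ array B.

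**Figure D3:**
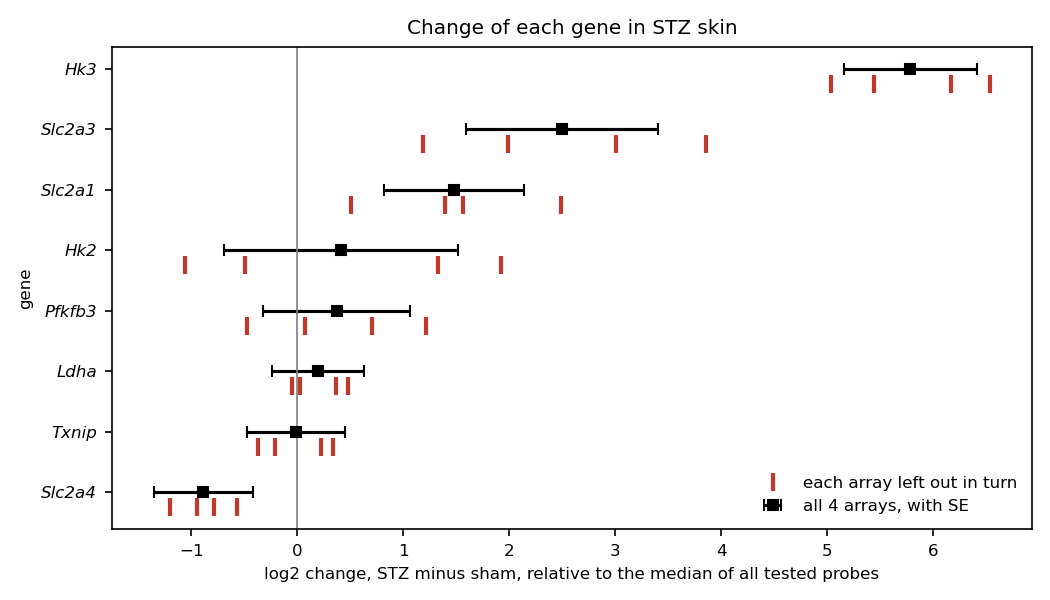
Log2 change of each of the 8 measured genes, STZ minus sham, relative to the median change over all tested probes (horizontal axis). Squares are the change from all 4 arrays with its SE, and the vertical marks below them are the values with each array left out in turn. The marks of Hk3, Slc2a3, Slc2a1 and Slc2a4 stay on the same side of 0, and those of Hk2, Pfkfb3, Ldha and Txnip lie on both sides.

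Further down the pathway, Pfkfb3 was dim, with spot intensities from 31.7 to 125 over the 4 arrays. Its level was -3.58 and -3.86 on STZ arrays A and B, against -5.19 and -3.45 on sham arrays A and B. The STZ arrays lay between the sham arrays, and the log2 change was 0.37 ± 0.69 (SE; limma, unadjusted p = 0.426), with a 95% interval from -1.41 to 2.15. After quantile normalization it was -0.04, and without sham array A -0.47. Its nearest list genes in pattern were Pkm and Pgk1, enzymes of later glycolysis (distances 0.69 and 0.70, median 1.81). The other genes of the family, whose enzymes also make or break down fructose 2,6-bisphosphate, included 2 that were lower at an unadjusted p under 0.05 of 3 tested (1 without STZ array B and none without sham array B). Pfkfb1, the form of liver and muscle, stood at -3.20 and -2.86 on STZ arrays A and B, against -1.17 and -0.70 on sham arrays A and B, a change of -2.32 ± 0.45 (SE). Pfkfb2, the heart form, had a change of -1.95 ± 0.52 (SE), and that of Pfkfb4 was 0.00 ± 0.74 (SE).

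Ldha was read by 3 probes, of which the 2 brightest gave nearly the same pattern. The brightest stood at 6.79 and 6.60 on STZ arrays A and B, against 6.07 and 6.47 on sham arrays A and B. The STZ arrays lay above the sham arrays by only 0.13, and the groups overlapped scaled to the median of all probes and after quantile normalization. Its log2 change was 0.20 ± 0.43 (SE; limma, unadjusted p = 0.376), with a 95% interval from -0.92 to 1.31. The probe with the next highest signal had a change of 0.13 ± 0.44 (SE). The dimmest probe, A_44_P210461, split the STZ arrays instead, at 3.55 and 1.97 on STZ arrays A and B, against 2.46 and 2.96 on sham arrays A and B, with a change of -0.18 ± 0.67 (SE). The SD over its 10 spots in each reading was 0.078 to 0.133. The list genes nearest to the brightest probe in pattern were Txn1, the gene of thioredoxin, and Gyg1, the gene of the glycogen primer glycogenin (distances 0.17 and 0.22, median 1.27). Whether the dimmest probe reads the same transcripts as the other 2 cannot be told from the files.

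**Figure D4:**
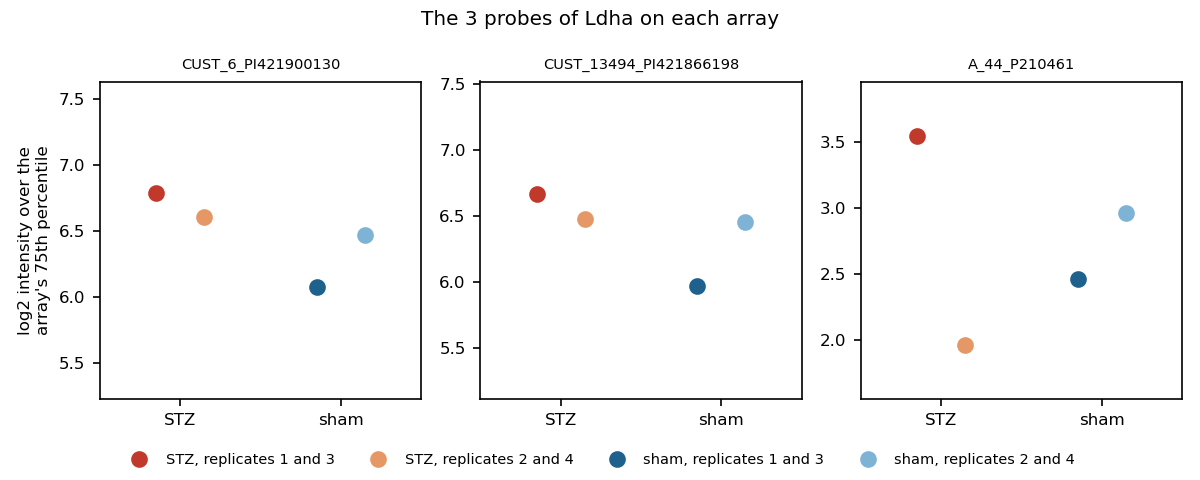
Level of the 3 Ldha probes on each array (vertical axis, log2 intensity over the 75th percentile of the array), for STZ and sham. Points are single arrays, and the panels have the same span. The STZ arrays lie 0.18 apart in each of the brighter 2 probes and 1.58 apart in the dimmest, A_44_P210461.

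Glycolysis after hexokinase gave no common direction. Of 17 tested enzyme genes, 8 were higher and 9 lower, with a median log2 change of -0.04 (0.14 after quantile normalization, with 10 higher, and 0.33 without STZ array B, with 13 higher). Eno2, an enolase best known from neurons, was the 1 gene at an unadjusted p under 0.05. It stood at -1.50 and -2.39 on STZ arrays A and B, against -3.52 and -3.58 on sham arrays A and B, a change of 1.38 ± 0.50 (SE). No gene of the list was higher at that threshold scaled to the median of all probes or after quantile normalization, with or without normexp. Pgam2, the muscle phosphoglycerate mutase, had a change of -1.71 ± 0.59 (SE, unadjusted p = 0.0539), while Pgam1, the form of other tissues, had a change of 0.44 ± 0.43 (SE). Of the genes of lactate and pyruvate handling, 6 of 15 tested were higher and 9 lower (8 higher and 7 lower without STZ array B, 4 higher and 11 lower without STZ array A), and 3 had an unadjusted p under 0.05. Slc16a3, the gene of the lactate exporter MCT4, was at 4.06 and 2.68 on STZ arrays A and B, against 0.04 and 0.61 on sham arrays A and B. Its log2 change was 2.81 ± 0.63 (SE; limma, unadjusted p = 0.00468). Slc16a7, the high-affinity pyruvate and lactate transporter MCT2, differed the other way, at -1.54 and -1.96 in STZ, against 0.41 and 1.03 in sham, a change of -2.69 ± 0.48 (SE). Ldhc, the lactate dehydrogenase best known from testis, had a change of 2.41 ± 0.52 (SE), at -2.10 and -1.25 in STZ, against -4.04 and -4.58 in sham.

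Of 10 tested genes of the HIF axis, 8 were higher and 2 lower, with a median log2 change of 0.32 (0.00 without STZ array A, with 5 higher), and none reached an unadjusted p under 0.05 (1 without either STZ array and after quantile normalization, 2 with normexp before it). Ankrd37, a target of HIF, had a change of 1.09 ± 0.53 (SE), and Adm, the gene of adrenomedullin, also a HIF target, had a change of 1.11 ± 0.58 (SE). Hif1a itself stood at 3.54 and 2.28 on STZ arrays A and B, against 1.60 and 2.57 on sham arrays A and B, so the groups overlapped. Together with Slc16a1, the lactate transporter MCT1, it lay nearest in pattern to Hk2 (distances 1.18 for Hif1a and 1.0 for Slc16a1, median 2.65).

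Txnip, the gene that glucose is known to induce, was among the brighter probes and hardly differed between the groups. It stood at 6.45 and 6.37 on STZ arrays A and B, against 6.53 and 5.87 on sham arrays A and B. Both STZ arrays lay between the sham arrays, and the STZ arrays differed by 0.08, a smaller difference than most probes had (percentile 7.23 of tested probes). The log2 change was -0.01 ± 0.46 (SE; limma, unadjusted p = 0.665), with a 95% interval from -1.20 to 1.17, so differences up to those bounds are within what these arrays allow. The sign turned with the scaling, at 0.00 after quantile normalization, and with sham array A left out, at 0.34.

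The relatives and partners of Txnip gave no common direction that held with each array left out. Of 7 tested genes of a list of 11, 4 were higher and 3 lower, with a median log2 change of 0.12 and none at an unadjusted p under 0.05. After quantile normalization the median was 0.30 with all 7 higher and 1 at an unadjusted p under 0.05 (2 with normexp before it). Without STZ array A the median was -0.04, and without sham array B -0.07, each with 3 higher and 4 lower. Arrdc3, an arrestin-fold relative, had the smallest p of the list, at 0.32 and -0.43 on STZ arrays A and B, against -1.45 and -1.11 on sham arrays A and B, a change of 1.0 ± 0.49 (SE, unadjusted p = 0.0533). The thioredoxin gene Txn1 had a change of 0.12 ± 0.45 (SE). Nearest to Txnip in pattern were Arrdc1, another arrestin-fold relative, and Mlx, the partner of MondoA and ChREBP, at distances of 0.11 and 0.21 (median 1.32).

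Of the routes that run beside glycolysis, all 6 tested genes of gluconeogenesis were lower, 3 at an unadjusted p under 0.05, with a median log2 change of -1.1 (4 or 5 of the 6 lower after quantile normalization, with or without normexp, and with an array left out). The 3 became 1 without sham array A and 2 without STZ array B or sham array B. Fbp1, fructose bisphosphatase of liver, kidney and other tissues, had a change of -5.74 ± 0.51 (SE), and Fbp2, the muscle form, a change of -1.81 ± 0.49 (SE). Pck1, which fat cells use to make glycerol, stood at 0.68 and 3.16 on STZ arrays A and B, against 5.18 and 5.14 on sham arrays A and B. Its change was -3.47 ± 0.89 (SE). Of 11 tested glycogen genes, 5 were higher and 6 lower (6 and 5 without STZ array B), and Gys2, the glycogen synthase of liver and fat, had a change of -3.65 ± 0.84 (SE, unadjusted p = 0.00943). The pentose phosphate list had 1 of 6 tested genes higher and 5 lower, with a median of -0.28 (0.02 after quantile normalization, with 3 higher, and 0.07 without STZ array B, with 4 higher) and none at an unadjusted p under 0.05. Of the 3 tested genes of GLUT4 storage, Sort1, the gene of sortilin, which sorts GLUT4 into its storage vesicles, had a change of -1.52 ± 0.42 (SE, unadjusted p = 0.0280), at 0.75 and 0.48 in STZ, against 1.87 and 1.94 in sham. It was past that threshold neither without STZ array B nor without either sham array.

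**Figure D5:**
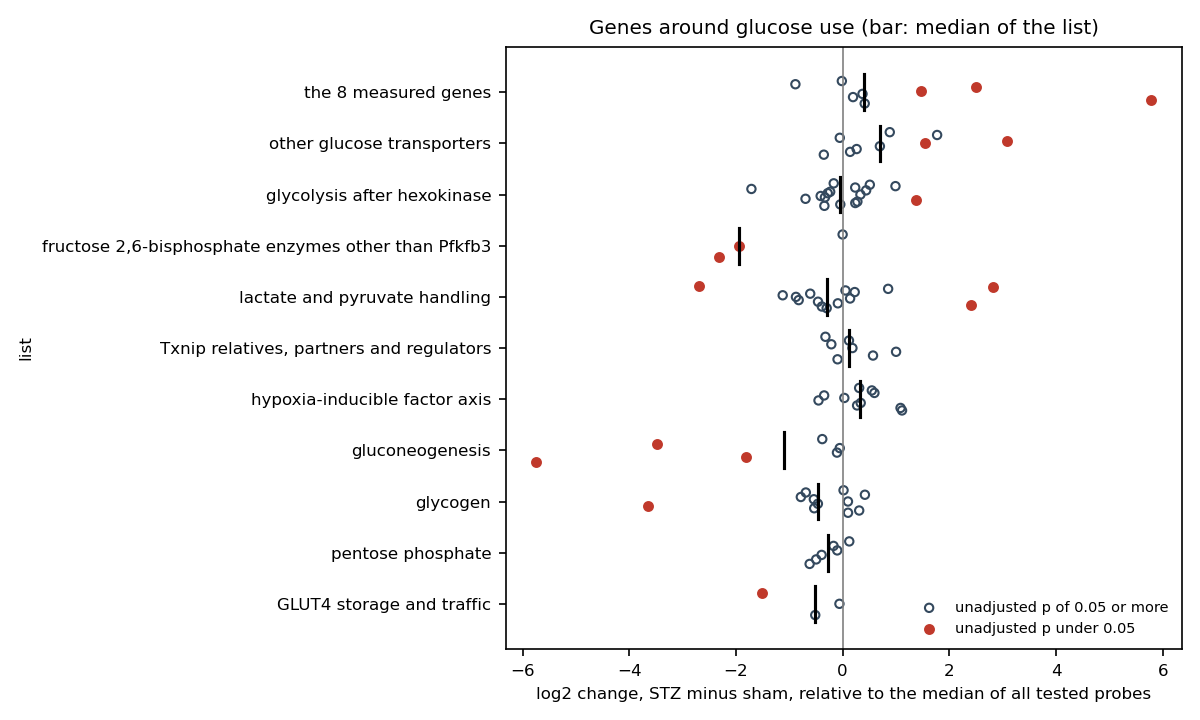
Log2 change, STZ minus sham, relative to the median change over all tested probes (horizontal axis), of each tested gene of 10 lists around glucose use and of the 8 measured genes (rows). Each point is a gene, filled where the unadjusted p is under 0.05, and the bar is the median of the list. The glycolysis list centres at -0.04, while the filled points lie far to both sides, Hk3 at 5.79 and Fbp1 at -5.74.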

How the data were processed

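Skin RNA was amplified and Cy3-labelled for Agilent rat arrays of a single colour, per the labels' protocols. The scanner software was Agilent Feature Extraction, in version 11.0.1.1 per the file headers and 11.0.0.1 per the submitters' processing notes. The deposited intensity is the processed signal of each spot, from which the software had subtracted the background, with no normalization across arrays, per the file headers. Uncorrected median intensities of spot and local background, also deposited, served the normexp alternative. The deposited flags for background, saturation and outliers are other values, 0 or 1 per spot, per the file headers. No spot was saturated.

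From the log2 of the processed intensities, each reading's 75th percentile over its 42136 noncontrol spots was subtracted, and spots of a probe without an outlier flag were averaged. Readings of the same array were recognised by their header position on the 1 slide and by spot deviations that correlated at 0.988 or more (at most 0.788 otherwise), and were averaged. Of 24684 probes, the 21529 that stood well above background in 4 or more of the 8 readings were tested with limma 3.58.1 in R 4.3.3, 2 arrays per group, two-sided, Benjamini-Hochberg adjusted over all tested probes. The p tests the difference on the 75th percentile scale, before the median change of all tested probes is subtracted, and SEs are moderated. The fit was checked on simulated data. A gene with several probes is given by the brightest, and all Ldha probes are printed. The RefSeq table of GRCr8 named 14274 of 15321 coding accessions. Probe coordinates are left out, as the arrays were annotated on an older build (rn4, per the file headers).

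The genes and lists were chosen with earlier results of these data known. All 8 measured genes are described, of each list up to 4 genes with the smallest p, none past the adjusted test, and for each measured gene the 2 nearest of 152 list genes by Euclidean distance of centred levels. 1 result that this rule selects is not reported here. The ends of the marker ranges (Ngp, Mrc1 and Lyz2) were chosen after their values were seen. The number of arrays limits the precision. Alternatives are the scaling, background correction, filter, flagged spots, probes per gene, rescans, array weights, the replicate number as a block and each array left out.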

Additional observations from a re-analysis of the deposited data

How the results depend on the processing

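The number of probes past the adjusted test, 0 as reported (2336 at an unadjusted p under 0.05), was 1243 scaled to the median of all probes and 5244 with the 8 readings taken as separate arrays, which counts every array as 2. Leaving out each array in turn gave 0 to 48 probes. The probes higher at an unadjusted p under 0.05 numbered 1575, against 5314 with 8 separate readings, 5382 without STZ replicates 1 and 3, 1246 without STZ replicates 2 and 4, 1028 without sham replicates 1 and 3 and 677 without sham replicates 2 and 4. The probes lower numbered 761, against 1395 scaled to the median, 1150 after quantile normalization, 1346 after normexp with it, 3315 with 8 separate readings and, in the same order of arrays left out, 1093, 761, 366 and 305. Hk3, Slc2a3, Slc2a1 and Slc2a4 kept their direction in all 17 alternatives. Hk3 passed the adjusted test scaled to the median (5.78) and with 8 separate readings (5.79), Slc2a3 in the same settings (2.50 and 2.50) and Slc2a1 with 8 separate readings (1.48), and the cause of the median setting's calls was not tested. With an array left out the changes ran from 5.03 to 6.54 for Hk3, 1.19 to 3.85 for Slc2a3, 0.50 to 2.49 for Slc2a1, -1.20 to -0.57 for Slc2a4, -1.06 to 1.93 for Hk2 (-0.50 without sham replicates 1 and 3), -0.47 to 1.22 for Pfkfb3, -0.054 to 0.48 for Ldha and -0.37 to 0.34 for Txnip (0.22 without STZ replicates 2 and 4). Pfkfb3 also turned after quantile normalization (-0.040) and normexp with it (-0.0060). Txnip also turned after quantile normalization (0.0026), with probes above background in all 8 readings (0.065) and in the single readings of replicates 1 and 2 (0.011). The causes were not tested. The deviations of same-numbered arrays correlated at -0.20, which with 2 pairs cannot show whether the replicate numbers pair the samples. With the number as a replicate block 0 probes passed, and likewise crossed between the groups. Hk3 had 5.79 (adjusted p = 0.0762) with the block, and no call of the 8 genes differed. The slide as a block was not run, since all arrays lay on 1 slide. The dimmest signals, of Pfkfb3 in both groups and of Slc2a3 and Hk3 in sham, passed the background flag, but their changes depend on the background correction (with normexp and quantile normalization, 4.89 for Hk3 and 1.63 for Slc2a3).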
